A study of Mus musculus with 12 samples.

Results

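The cytosolic ribosomal protein genes were read in hearts of wild-type (WT) and Fabp3-null (F3-KO) mice of strain C57BL/6, 1 week after transverse aortic constriction (TAC) or sham surgery. Members were the genes whose symbol begins with Rpl or Rps and a digit, leaving out 10 Rps6k genes, which encode kinases, and 3 symbols of pseudogenes ending in -ps, and reaching at least 10 counts in at least 3 hearts. Of 84 candidates 81 met the count minimum, out of 19308 genes in the table, and all 81 were among the 14094 genes tested. They comprised 43 genes of the large subunit, 30 of the small subunit, 5 paralogs (Rpl3l, Rpl22l1, Rpl7l1, Rpl36al and Rps27l) and 3 other symbols, the retrogenes Rpl37rt and Rps27rt and Rps19bp1, which encodes a binding protein of Rps19 and no ribosomal protein.

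The 12 hearts fell into 4 groups of 3, which were WT sham, F3-KO sham, WT TAC and F3-KO TAC. Mice were operated at 8 weeks of age, and TAC, a ligature narrowing the aortic arch, raises the pressure against which the left ventricle works. F3-KO mice carry a global knockout of Fabp3, the fatty acid binding protein of heart and skeletal muscle, made by CRISPR/Cas9. The study's purpose was to compare the hypertrophic response with and without Fabp3, and RNA came from whole heart tissue, in which fewer cells of a type and less RNA per cell cannot be told apart.

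The cytosolic ribosome joins a large subunit, where peptide bonds form, to a small subunit that decodes the mRNA, and nearly all of its proteins are needed in equal numbers in every particle. Most of their mRNAs start with a cytosine followed by a run of pyrimidines, the 5′ terminal oligopyrimidine (5′TOP) motif, through which Larp1 and mTOR signalling set their translation as a group. Growth of cardiomyocytes under pressure overload is known to need more protein synthesis and more ribosomes, and mRNA levels such as those measured here do not show how much of each mRNA was translated. Striated muscle also makes Rpl3l, a paralog that can take the place of Rpl3 in the large subunit.

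Library totals ran from 10424334 to 14372011 estimated counts, and replicates of a group differed by more than sampling noise in each pair, with a chi-square per degree of freedom between 10.35 and 83.95. Fabp3 checks the genotypes. Its level, in CPM (counts scaled to a common library size, after TMM normalisation between hearts), was 2116 to 2847 after sham and 2885 to 3061 after TAC in WT mice, and 1039 to 1088 and 1002 to 1142 in F3-KO mice, so it was lower in every F3-KO heart and not at 0 (log2 fold change −1.35 ± 0.11 SE over both surgeries, edgeR quasi-likelihood test, Benjamini-Hochberg adjusted p = 9.05e-05). All 7 cardiomyocyte markers were detected. Nppb and Acta1, which rise with ventricular load, were the only genes of the lists below that passed the edgeR test after TAC over both genotypes (log2 fold change 1.86 and 3.37). Heart 2 of WT sham and heart 2 of WT TAC stood out of order in the summed hypertrophy genes (Nppa, Nppb, Acta1 and Myh7), at 9743 and 2535 CPM. WT sham heart 3, at 4383 CPM, also lay above WT TAC heart 2. These sums, like all sums of marker genes below, were scaled by library totals alone, without TMM. In WT sham heart 2 the high sum was Myh7 alone, at 9172 CPM after TMM, while its Nppb of 95.0 CPM was the lowest of the 12 hearts. WT sham heart 2 was also the heart with the most ribosomal protein mRNA, and medians that rest on it are given with and without it.

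Of the members, 62 matched a promoter entry of RefSeq on build GRCm38.p6, with 74 transcription starts. A TOP-like run, here a C followed by C or T only, at least 6 bases long in all and beginning within 10 bases of the start on the gene's own strand, was found at 34 of the 74 starts (45.9%), against 18.5% of all 32851 starts in the table and 18.9% of 13713 starts of tested genes that are no members. Each sequence below is the 30 bases around an annotated start, 15 before it and 15 from it on, with the TOP-like run in capitals. They are shown because this run is the sequence these genes are known to share, and because Rps27, its retrogene Rps27rt and Rpl3l return in the results. They lie at chr2:39005117-39005146 (Rpl35, minus strand), chr7:4792950-4792979 (Rpl28, plus), chr4:86857353-86857382 (Rps6, minus), chr11:114668565-114668594 (Rpl38, plus), chr17:33955651-33955680 (Rps18, minus), chr17:27635230-27635259 (Rps10, minus), chr17:24720048-24720077 (Rps2, plus), chr3:90213634-90213663 (Rps27, minus), chr9:114982725-114982754 (Rps27rt, minus) and, for 2 starts of Rpl3l on the plus strand, chr17:24727811-24727840 and chr17:24732670-24732699.
Rpl35: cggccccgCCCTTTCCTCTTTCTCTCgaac
Rpl28: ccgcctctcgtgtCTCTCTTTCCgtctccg
Rps6: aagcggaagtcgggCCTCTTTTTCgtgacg
Rpl38: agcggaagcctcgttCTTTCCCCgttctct
Rps18: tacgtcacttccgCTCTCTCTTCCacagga
Rps10: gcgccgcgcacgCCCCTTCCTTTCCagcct
Rps2: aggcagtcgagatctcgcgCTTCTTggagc
Rps27: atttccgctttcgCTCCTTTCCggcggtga
Rps27rt: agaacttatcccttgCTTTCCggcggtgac
Rpl3l, first start: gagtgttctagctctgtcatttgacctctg
Rpl3l, second start: gtcatcaacagctacagtgccccaaatgtc

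Among the sequences shown, the run is longest in Rpl35, at 18 bases, and begins at the first base of the transcript in Rpl38 and Rps27rt. Neither start of Rpl3l holds such a run. The windows of Rps27 and Rps27rt share an unbroken stretch of 14 bases. Over the whole promoter entry of 300 bases, searched on both strands, CCGGAAG, the core of the GABPA site, lay at 32.4% of the members' starts, against 8.86% of all starts and 16.0% of starts of other tested genes. AAGATGG, a core of the YY1 site, lay at 16.2%, against 6.34% of all starts and 6.56% of starts of other tested genes. CTTTCC, which lies within some of the runs shown, was likewise counted anywhere in the entry and lay at 48.6%, against 26.6% and 26.2%. TATAAA lay at 8.11%, below the 13.6% of all starts but near the 7.52% of other tested genes. These counts describe letters in a window and were not tested.

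Ribosomal protein mRNAs were short and abundant. The median member's transcript was 681 nt long (shortest principal transcript of GENCODE vM21), against 2848 nt over the other tested genes, and 64 members lay under 1000 nt, as did 6.79% of the others. The median member's mean level was 198 CPM over the 12 hearts, against 20.8 CPM over all genes tested. By mean CPM, the 5 highest were Rps2 (1041), Rpl4 (690.2), Rps24 (608), Rps4x (489) and Rps3a1 (485), which encode proteins of the small subunit apart from Rpl4. These 5 held 19.1% of the members' summed CPM and the 10 highest held 30.9%. Per kilobase of transcript, the levels of Rps2 (1043 CPM per kb), Rps15 (749), Rpl41 (732), which encodes the shortest protein of the ribosome, Rpl23a (621) and Rps27 (576) led.

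The lowest members lay more than 10 times below the median member, although the proteins stand in equal numbers in the ribosome. By mean CPM the 5 lowest were Rps13 (3.59), Rpl10 (4.84), Rpl31 (7.12), Rps19bp1 (7.64) and Rpl10a (8.94), which rest on 42.2 to 107 counts a heart on average. Rps19bp1 encodes no ribosomal protein, so equal numbers do not apply to it. Rps6, the substrate of the S6 kinases, stood at 12.2 CPM. Many members have near-identical copies elsewhere in the genome, whose reads a counting program can split or drop. In Rps13, Rpl10, Rpl10a, Rps6 and Rps12, between 83.0% and 92.1% of all 50-base stretches of the transcript also occurred in transcripts of other genes. Of the other low members, Rpl31 shared 75.1% and Rps19bp1 0%. Over the 19 members with more than 80% of their stretches in other genes the median level was 112 CPM, over the 52 between 20% and 80% it was 202 CPM, and over the 10 under 20% it was 263 CPM. High sharing did not always go with a low level, since Rps27 shared 98.6% and stood at 199 CPM. Levels of highly shared members are therefore uncertain, and how the deposited counts treated shared reads was not tested.

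**Figure D1:**
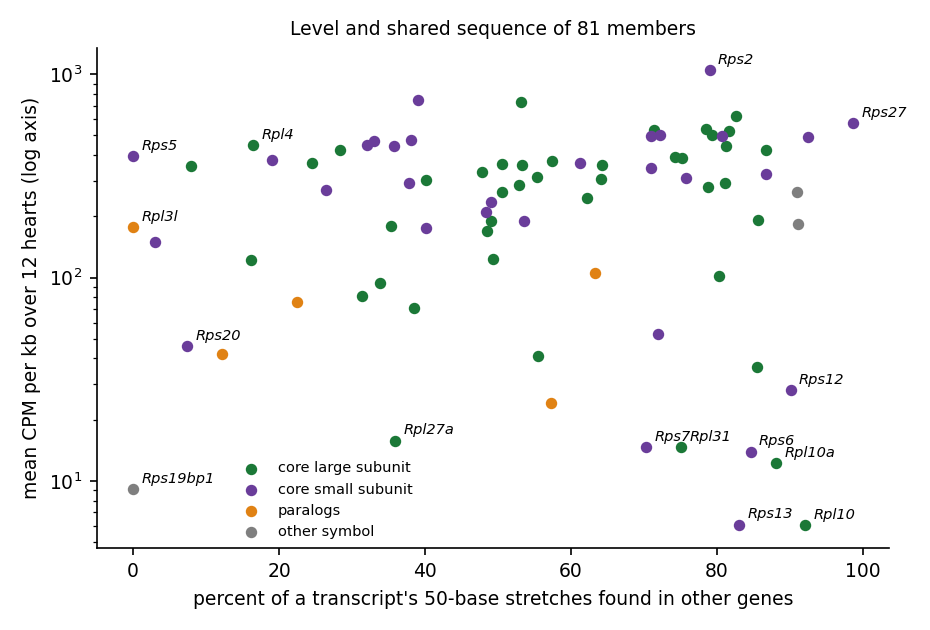
Each point is 1 of the 81 members, placed by the percent of its transcript's 50-base stretches that occur in other genes (x axis) and its mean level over 12 hearts in CPM per kilobase of transcript (y axis, log scale), coloured by class. Rps13 and Rpl10, the 2 lowest by level, share over 80% of their stretches, while Rps27 shares 98.6% and lies among the highest.

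The hearts of WT sham differed more in ribosomal protein mRNA than the group means did. The median member had a within-group standard deviation of 0.27 on the log2 CPM scale, against 0.20 for 1836 other tested genes between the members' quartiles of mean CPM (77.6 to 298). The summed share of library counts taken by the members was 1.57, 2.33 and 1.37% in WT sham hearts 1, 2 and 3, and 1.78, 1.64 and 1.65% in F3-KO sham hearts. It was 1.67, 1.80 and 2.02% in WT TAC hearts, and 1.55, 1.74 and 1.66% in F3-KO TAC hearts. Group means of the share ran from 1.65% in F3-KO TAC to 1.83% in WT TAC hearts. WT sham heart 2 was the highest and WT sham heart 3 the lowest of all 12, so the other 3 groups lay inside the range of the WT sham group.

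The same order showed gene by gene. Of the 73 core members, 45 had their highest level in WT sham heart 2 and 23 in WT TAC heart 3, while 32 had their lowest in WT sham heart 3 and 27 in F3-KO TAC heart 1. Both subunits moved alike between hearts, with a ratio of summed large to summed small subunit counts of 1.22 to 1.38. The median deviation of the members from their own means over 12 hearts ran from −0.26 in F3-KO TAC heart 1 to 0.42 in WT sham heart 2 on the log2 scale. For 812 other genes with transcripts under 1000 nt it ran from −0.13 to 0.16, with the same hearts at both ends. These genes were highest in WT TAC heart 3 (0.16) and WT sham heart 2 (0.12). They were lowest in WT sham heart 3 (−0.13) and F3-KO TAC heart 1 (−0.13). After TAC their group means were 0.050 for WT and −0.083 for F3-KO, against 0.145 and −0.112 for the members. After sham they were −0.002 for WT and 0.049 for F3-KO, against 0.023 and 0.002. Whether RNA quality had a part in the order of the hearts was not tested.

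**Figure D2:**
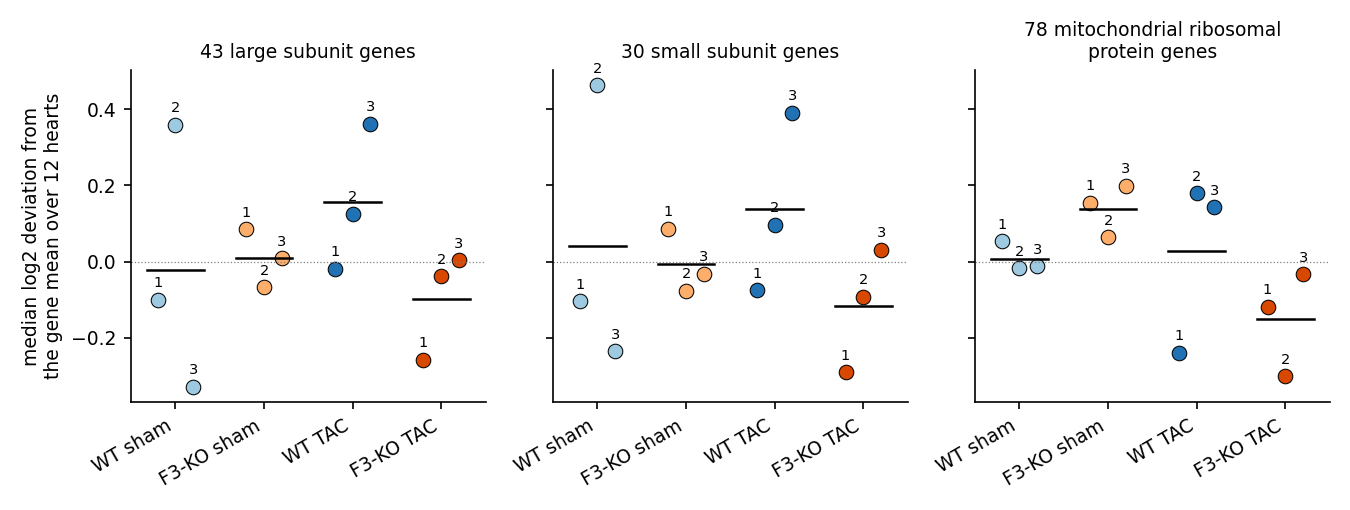
Points are single hearts, numbered by replicate, and bars are group means of 3 hearts; the y axis is the median over the listed genes of the log2 deviation from each gene's mean over 12 hearts. WT sham heart 2 and WT TAC heart 3 lie highest for both subunits and WT sham heart 3 lies low, a spread within WT sham that mitochondrial ribosomal protein genes do not show.

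After TAC in WT hearts, which asks what pressure overload does with Fabp3 present, ribosomal protein genes lay close to their sham level. edgeR called no member at an adjusted p under 0.05, as it called none of the 14094 genes (background 0%), and at an unadjusted p of 0.05 or less it also named 0 of 81 (background 6.28%). DESeq2 called 0 members (background 0.192%), with 0 at an unadjusted p (background 6.83%), and limma called 0 (background 0.00710%). The median member had a log2 fold change of 0.10, with 63 above 0 and 18 below (background 49.9% below), while the median over all genes was 0.00. For the large subunit the median was 0.12 and for the small subunit 0.08. This median rested on single hearts. It was 0.35 without WT sham heart 2, −0.041 without WT sham heart 3 and −0.025 without WT TAC heart 3. The groups did not overlap for 1 member, Rps7, which was higher (background 4.67%), and for 0 that were lower (background 4.43%).

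After TAC in F3-KO hearts the median member lay slightly lower. The core members farthest from the core median were Rps12 (2.14), Rps7 (−0.63) and Rpl3 (0.37), and the paralog Rpl3l stood at −0.88. edgeR called 0 members at an adjusted p under 0.05 (background 0%), while 3 reached an unadjusted p of 0.05 (background 17.1%), Rps12 higher and Rpl3l and Rpl8 lower. DESeq2 called 1 member, Rpl3l (background 3.15%), and 4 by the unadjusted p (background 18.0%), and limma called 0 (background 0.0568%). The median log2 fold change was −0.12, with 19 above 0 and 62 below (background 47.1% below), against 0.02 over all genes. With library totals alone it was −0.03, with 34 above and 47 below, and the median of all genes moved to 0.12. The members' median minus that of all genes was −0.145 under both scalings. The sham and TAC hearts did not overlap for 2 members that were higher, Rpl3 and Rpl39 (2.47% of the members, background 11.5%). They did not overlap for 15 that were lower (18.5% of the members, background 11.4%). The median was −0.073 without F3-KO sham heart 1 and −0.19 without F3-KO TAC heart 3, and it stayed below 0 without any single heart.

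Rpl8, a large subunit protein beside the peptidyl transferase centre, had 352, 283 and 311 CPM in F3-KO sham and 223, 245 and 258 CPM in F3-KO TAC hearts, which did not overlap (log2 fold change −0.38 ± 0.17 SE, adjusted p = 0.27 by edgeR with Benjamini-Hochberg adjustment). Rpl39, a small protein at the exit tunnel, had 62.3, 64.5 and 65.1 CPM in F3-KO sham and 70.0, 90.2 and 84.0 CPM in F3-KO TAC hearts, again without overlap (0.35 ± 0.19, adjusted p = 0.37 by edgeR with Benjamini-Hochberg adjustment). In WT hearts Rpl39 had 59.1, 89.8 and 50.04 CPM after sham and 77.0, 81.6 and 97.3 CPM after TAC, where WT sham heart 2 lay among the TAC values. Over both genotypes its log2 fold change after TAC was 0.36 ± 0.13 (edgeR, Benjamini-Hochberg adjusted p = 0.20).

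In the TAC-against-sham contrast averaged over both genotypes, edgeR called 0 members (background 0.0780%) and 3 reached an unadjusted p of 0.05 (background 17.8%), with Rpl3 and Rpl39 higher and Rpl3l lower. DESeq2 called 1, Rpl3l (background 4.66%), and 3 by the unadjusted p (background 18.6%), and limma called 0 (background 0.0851%). The median member stood at −0.01, with 35 above 0 and 46 below (background 49.2% below). Its side of 0 turned on single hearts, since it was 0.12 with 63 above 0 without WT sham heart 2, 0.002 with 41 above 0 without F3-KO sham heart 1, and −0.084 with 19 above 0 without WT sham heart 3.

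Between genotypes after sham surgery, edgeR called 0 members (background 0.106%), and 3 reached an unadjusted p of 0.05 (background 6.02%). These were Rps7, higher in F3-KO, and Rps12 and Rps27rt, lower. DESeq2 called 0 (background 0.746%), with 2 by the unadjusted p (background 6.14%), and limma 0 (background 0.177%). The median log2 fold change of F3-KO sham over WT sham was −0.04, with 30 members above 0 and 51 below (background 50.8% below). The direction between the sham groups turned on single hearts. Without WT sham heart 2 the median was 0.21 with 72 above 0, and without F3-KO sham heart 2 it was 0.01 with 44 above 0. It was −0.17 without WT sham heart 3, −0.12 without WT sham heart 1 and −0.071 without F3-KO sham heart 1. The sham groups did not overlap for 1 member that was higher in F3-KO, Rps7 (background 6.78%), and 2 that were lower, Rps12 and Rpl13 (background 6.92%).

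Between genotypes after TAC, nearly all ribosomal protein genes had a lower group mean in F3-KO hearts, most by a small amount. The groups overlapped in the members' median deviation, at −0.055 in WT TAC heart 1 and 0.010 in F3-KO TAC heart 3. Members also moved alike between hearts, so the number below 0 does not count independent results. The log2 fold change was below 0 for 77 of 81 members (background 46.9%). Its median was −0.265, at −0.26 for the large subunit and −0.28 for the small subunit, against 0.02 over all genes. Above 0 stood Rps12, Rpl10, Rps13 and Rpl36al, of which the first 3 are members of low level and high sharing. edgeR called 0 members (background 0.0780%), and 3 reached an unadjusted p of 0.05 (background 10%), namely Rpl3l, Rpl13 and Rpl8, each lower. DESeq2 called 0 (background 0.717%), with 8 by the unadjusted p (background 10.6%), each lower, and limma called 0 (background 0.0993%). Without TMM scaling 69 members lay below 0 and the median was −0.16, with the median of all genes at 0.12.

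The groups did not overlap for 17 members lower in F3-KO TAC (background 5.10%), which is 21.0% of the members, and for 0 that were higher (background 6.29%). Rpl13, Rpl35a and Rpl8 had the lowest fold changes among the 17, and the rest included Rpl38, Rpl28, Rps16, Rps15a, Rpl27, Rpl13a, Rps19, Rpl7a, Rpl35, Rpl6, Rpl15, Rpl29 and Rpl32, which stood at −0.37 to −0.24 on the log2 scale. By heart, WT TAC heart 3 and F3-KO TAC heart 1 carried much of the difference. Without the former the median was −0.14 with 66 members below 0, and without the latter it was −0.19 with 74 below 0. Medians of marker genes of cell types also differed between the same groups. The median log2 fold change of the 7 cardiomyocyte markers was −0.41, that of the 7 erythroid genes −1.88 and that of the 8 fibroblast genes 1.15. For each of these genes the WT TAC and F3-KO TAC hearts overlapped, and edgeR called 0 of them. Their part in the members' values was not tested.

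Rpl13 had 72.1, 86.4 and 110 CPM in WT TAC and 58.8, 61.8 and 71.3 CPM in F3-KO TAC hearts, and 81.2, 114 and 81.6 against 66.9, 79.1 and 69.5 CPM in the sham groups. The genotypes did not overlap within either surgery. Its log2 fold change over both surgeries was −0.42 ± 0.12 SE (edgeR, Benjamini-Hochberg adjusted p = 0.25), −0.36 after sham and −0.49 after TAC. Rpl35a had 129, 160 and 198 CPM in WT TAC and 105, 121 and 128 CPM in F3-KO TAC hearts, while Rpl8 had 260, 344 and 355 CPM in WT TAC hearts against the F3-KO TAC values above. For both the nearest hearts of the 2 groups differed by less than 2 CPM.

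Over both surgeries, edgeR called 0 members between genotypes (background 0.412%), and 3 reached an unadjusted p of 0.05 (background 10.1%), Rpl13, Rps27rt and Rps9, each lower in F3-KO. DESeq2 called 0 (background 1.54%), with 5 by the unadjusted p (background 10.3%), and limma called 0 (background 0.475%). The median was −0.13, with 73 of 81 below 0 (background 48.9%). Without WT sham heart 2 it was −0.037 with 52 below 0, and without WT sham heart 3 it was −0.20 with 78 below 0. The interaction, which asks whether TAC moved a gene differently in the 2 genotypes, gave 0 called members by edgeR (background 0%), with 1 by the unadjusted p (background 4.48%), Rps12. DESeq2 called 0 (background 0.0426%), with 1 by the unadjusted p (background 5.03%), and limma 0 (background 0.00710%). The median interaction was −0.23, with 73 of 81 members below 0 (background 45.8%), against 0.03 over all genes, and it ran over the same hearts as the comparisons above. It was −0.46 without WT sham heart 2, −0.085 without WT sham heart 3 and −0.10 without WT TAC heart 3. By group means, 57 members were highest in WT TAC and 53 lowest in F3-KO TAC, against 15.38% and 31.96% of all tested genes.

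**Figure D3:**
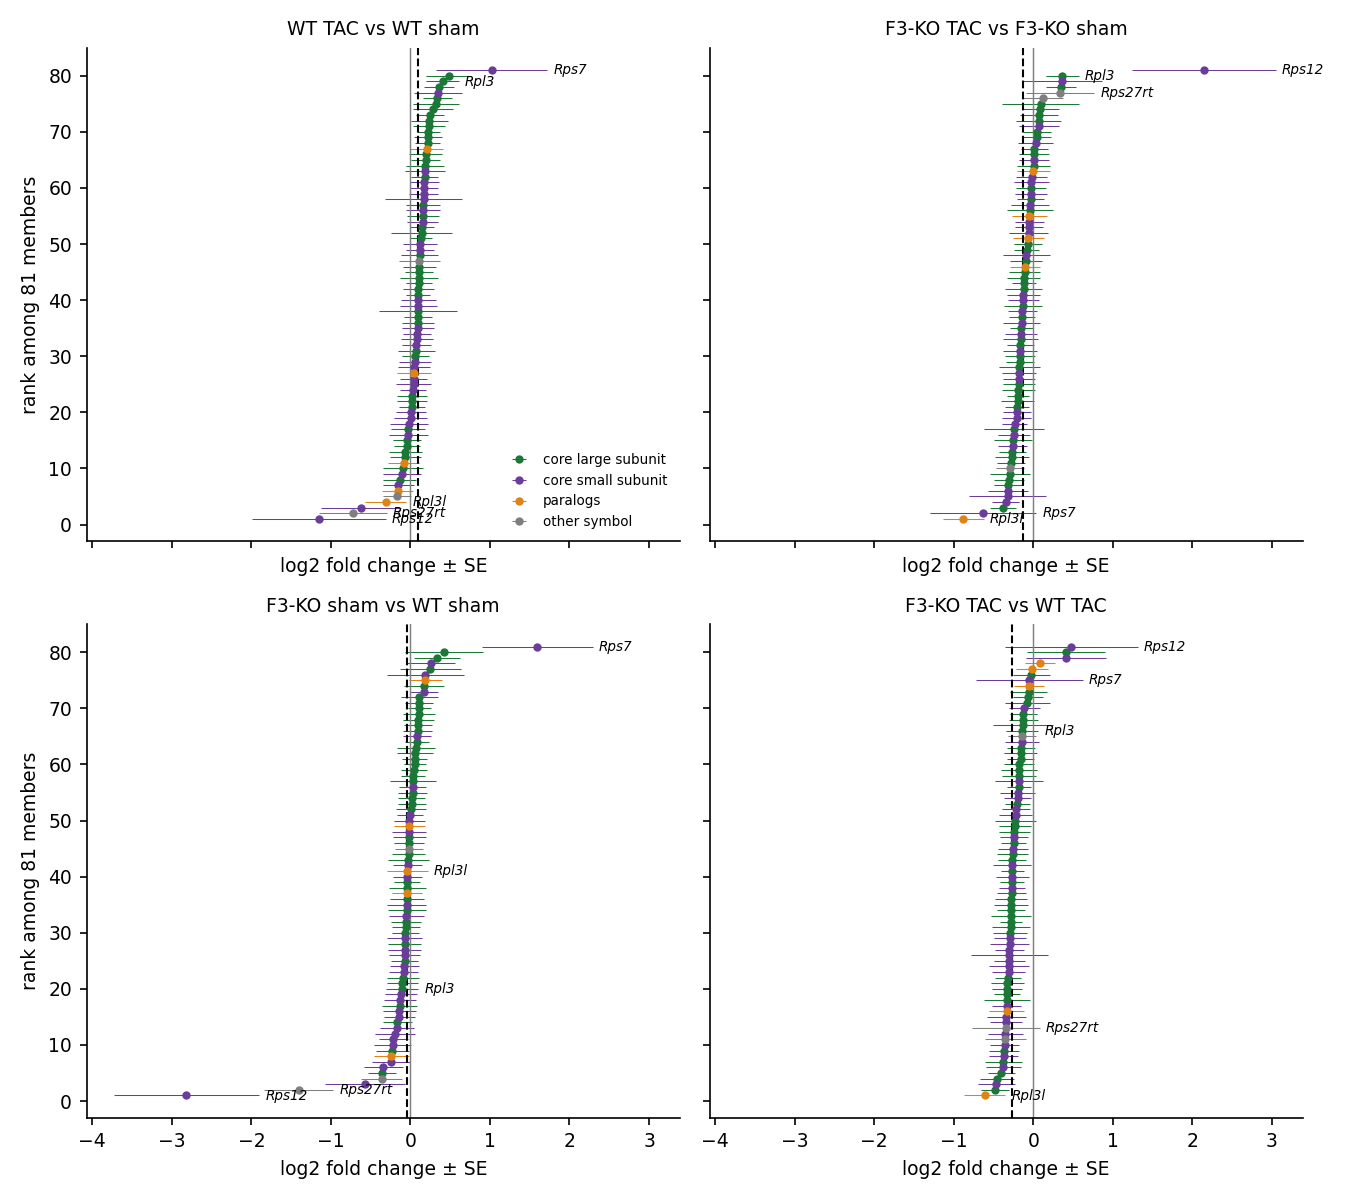
Each panel ranks the 81 members by log2 fold change in 1 comparison, with points for the fitted value, lines for ± 1 standard error, a grey line at 0 and a dashed line at the members' median. In F3-KO TAC against WT TAC 77 of 81 points lie below 0, while in the other panels the points lie on both sides and Rps7 and Rps12 stand apart with wide errors. Rps27rt also stands apart in F3-KO sham against WT sham, and Rpl3l is the lowest point in F3-KO TAC against F3-KO sham.

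Rpl3 and Rpl3l, which occupy the same place in the large subunit, stood on opposite sides of their sham level after TAC. In WT mice Rpl3l had 308, 273 and 298 CPM after sham and 167, 301 and 241 CPM after TAC. In F3-KO mice it had 289, 244 and 323 CPM after sham and 161, 98.9 and 205 CPM after TAC. Every F3-KO TAC heart lay below every sham heart, while WT TAC heart 2 lay among the sham values. Its log2 fold change after TAC was −0.88 ± 0.26 SE in F3-KO hearts (edgeR with Benjamini-Hochberg adjusted p = 0.18, DESeq2 adjusted p = 0.031), −0.31 ± 0.26 in WT hearts (edgeR adjusted p = 0.86) and −0.60 ± 0.18 over both genotypes (edgeR adjusted p = 0.14, DESeq2 adjusted p = 0.032). The call thus depended on the tool. Without F3-KO TAC heart 3 edgeR called it too, at −1.14 in F3-KO hearts (adjusted p = 0.039) and at −0.72 over both genotypes (adjusted p = 0.037). It was called with no other single heart left out. Over the left-out hearts it ran from −1.14 to −0.65 in F3-KO hearts, from −0.52 to −0.11 in WT hearts and from −0.72 to −0.485 over both genotypes. The interaction was −0.57 ± 0.36 (edgeR, Benjamini-Hochberg adjusted p = 0.95), and F3-KO TAC against WT TAC was −0.61 ± 0.26 (adjusted p = 0.47).

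In WT mice Rpl3 had 175, 295 and 225 CPM after sham and 287, 258 and 375 CPM after TAC. In F3-KO mice it had 235, 213 and 199 CPM after sham and 245, 328 and 261 CPM after TAC. The F3-KO groups did not overlap, and in WT hearts WT sham heart 2 lay among the TAC values. Its log2 fold change after TAC was 0.40 ± 0.20 SE in WT, 0.37 ± 0.20 in F3-KO hearts and 0.39 ± 0.14 over both genotypes (edgeR, Benjamini-Hochberg adjusted p = 0.20). The sum of both genes, scaled by library totals alone, ran from 441 to 592 CPM over the 12 hearts. Per kilobase, Rpl3l made 55.9 ± 7.93% of the pair after sham and 42.8 ± 9.22% after TAC in WT hearts, and 56.4 ± 4.45% and 35.2 ± 10.9% in F3-KO hearts (mean ± SD, n = 3). The percent was under 44% in 5 of the 6 TAC hearts and over 47% in all 6 sham hearts. These 2 transcripts share at most 22 bases in a row, and 0% of the 50-base stretches of Rpl3l lie in other genes, against 85.6% for Rpl3.

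Rpl3l is made in cardiomyocytes, and markers of other cells differed along with it. The hearts of lowest Rpl3l, F3-KO TAC 2, F3-KO TAC 1 and WT TAC 1, had the 3 highest fibroblast sums (7805, 4417 and 3391 CPM over 8 genes, against 737 to 1619 in the other 9 hearts) and the 3 highest sums of 4 proliferation genes (74.5, 206 and 85.6 CPM, against at most 17.2). Relative to the counts of the 7 cardiomyocyte markers, Rpl3l stood at 3.73 to 4.72 per 1000 after sham and 2.77 to 3.22 after TAC in WT, and at 3.175 to 3.83 and 2.065 to 3.65 in F3-KO hearts. On this scale the WT groups did not overlap, although they did in CPM, while the F3-KO groups overlapped, although they did not in CPM. The part of cell composition in the level of Rpl3l was not tested otherwise.

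**Figure D4:**
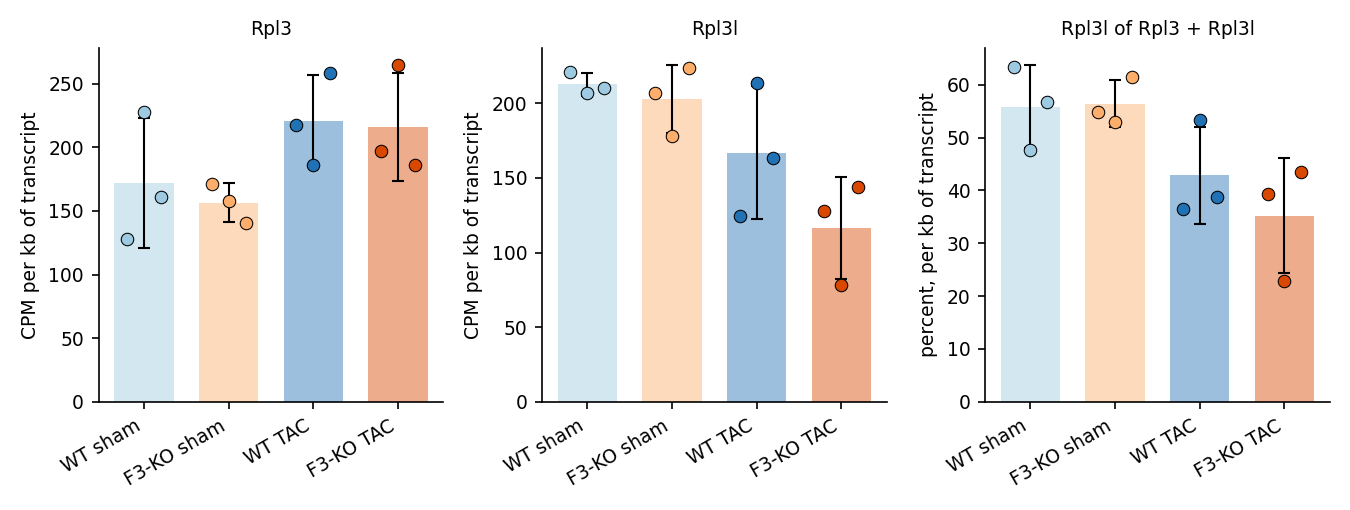
Bars are group means, error bars the standard deviation and points the 3 hearts of each group, for Rpl3 and Rpl3l in CPM per kilobase of transcript and for the percent of the pair that Rpl3l makes per kilobase. Rpl3l is lowest and its percent of the pair smallest in F3-KO TAC hearts, while WT TAC heart 2 keeps a sham-like level.

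The other paralogs differed less between groups in their part of the pair. Per kilobase, Rpl22l1, the paralog of Rpl22, made 5.66 to 7.12% of its pair in the 4 group means, and Rpl7l1, whose product acts in ribosome assembly, 9.93 to 11.3% of the pair with Rpl7. Rpl36al, a retrogene-derived copy, stood above Rpl36a in every group and made 71.8 to 75.6% of their pair. Rps27l, a p53-responsive copy, made 11.01 to 15.3% of the pair with Rps27. The highest of these means was that of WT sham, where heart 3 stood at 26.3% and hearts 1 and 2 at 11.4% and 8.34%. None of these 4 passed the edgeR test in any comparison, with log2 fold changes between −0.335 and 0.203 in the 4 comparisons of groups. The testis or germ-line paralogs Rpl10l and Rpl39l, and also Rpl32l, stayed under the count minimum, with at most 1, 4 and 4.52 counts in a heart.

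A few members share nearly all of their transcript with another gene. Rps27 and Rps27rt share 341 bases in a row, nearly the whole of the Rps27 transcript of 345 nt. Their estimated counts were 2139 and 530 in WT sham heart 1, 3512 and 1290 in heart 2, and 513 and 2037 in heart 3, so that Rps27rt held 79.9% of the pair in WT sham heart 3 and 12.3 to 30.4% in the other 11 hearts. Between the sham groups Rps27rt had a log2 fold change of −1.40 ± 0.43 SE in F3-KO (edgeR, Benjamini-Hochberg adjusted p = 0.50) and Rps27 one of 0.19 ± 0.48 (adjusted p = 1.00). With the 2 genes summed it was −0.22 ± 0.26 (edgeR, Benjamini-Hochberg adjusted p = 1.00), and over all 7 comparisons the sum's adjusted p was at least 0.65. Rpl37 and Rpl37rt share 248 bases in a row, and Rpl14 shares 419 with Rpl14-ps1. Summed, these pairs had log2 fold changes of −0.30 and −0.32 in F3-KO TAC against WT TAC, near the members' median.

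**Figure D5:**
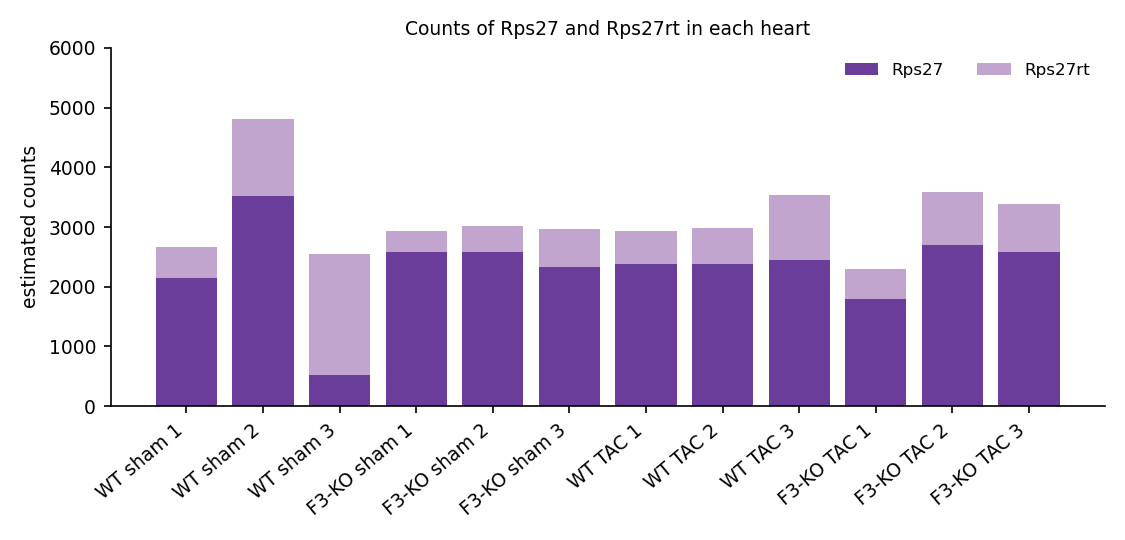
Stacked bars give the estimated counts of Rps27 and its retrogene Rps27rt in each of the 12 hearts. In WT sham heart 3 most of the pair's counts stand at Rps27rt, 2037 against 513, while the sum of 2550 is close to that of WT sham heart 1.

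Rps12 and Rps7, small subunit genes with 23 and 17 other genes sharing their stretches, had the widest spread. In sham hearts Rps12 had 18.4, 46.3 and 9.73 CPM in WT against 7.06, 1.30 and 2.11 CPM in F3-KO mice. After TAC it had 5.88, 16.6 and 11.1 CPM in WT against 22.0, 23.1 and 1.32 CPM in F3-KO mice. The sham groups did not overlap, but F3-KO TAC heart 3 lay with the F3-KO sham hearts and its group mates above 20 CPM. The log2 fold change was −2.82 ± 0.92 SE between the sham groups (edgeR, Benjamini-Hochberg adjusted p = 0.55) and 2.14 ± 0.91 after TAC in F3-KO hearts (adjusted p = 0.26). Without F3-KO TAC heart 3 the latter was 2.68 (adjusted p = 0.050, called). Over the left-out hearts it ran from 1.72 to 3.19, and it was called with no other single heart left out. Rps7 was listed at 0 counts in WT sham heart 1 and at 98 and 109 counts in hearts 2 and 3. It had 15.8, 15.6 and 23.4 CPM in the F3-KO sham group, and after TAC 9.96, 13.6 and 13.1 CPM in WT against 13.3, 9.69 and 12.4 CPM in F3-KO mice. In every other library it held at least 98 counts, and no other member was at 0 in any heart.

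Members known for tasks outside the ribosome showed no departure of their own that passed a test. Rpl5 and Rpl11, which with 5S rRNA hold Mdm2, had log2 fold changes after TAC of −0.06 and 0.11 in WT and of −0.20 and −0.28 in F3-KO hearts. Rps6, whose phosphorylation by the S6 kinases is a common readout of growth signalling, stood at −0.15 in WT and −0.13 in F3-KO hearts. Rps27a, which is made as a fusion with ubiquitin, stood at −0.11 and −0.06. In F3-KO TAC against WT TAC, Rpl38, known for its part in translating Hox mRNAs, stood at −0.37, Rpl13a, which can leave the ribosome to silence inflammatory mRNAs, at −0.33, Rps19, mutated in Diamond-Blackfan anaemia, at −0.31, Rps3, which also acts in DNA repair, at −0.27, Rpl41 at −0.26 and Rpl10a at −0.13. For Rpl38, Rpl13a and Rps19 these 2 groups did not overlap, as for 17 of the 81 members (21.0%, background 5.10%). The nearest WT TAC and F3-KO TAC hearts stood at 114.4 and 105.1 CPM for Rpl38. They stood at 386.6 and 385.4 CPM for Rpl13a and at 113.7 and 111.4 CPM for Rps19.

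Ribosomal proteins whose symbols the rule leaves out gave a similar picture. The 5 genes Rplp0, Rplp1 and Rplp2 of the stalk, Rpsa and Fau had a median log2 fold change of 0.13 after TAC in WT, with 5 above 0, and of −0.27 in F3-KO TAC against WT TAC, with 5 below 0. edgeR, DESeq2 and limma called 0 of them in each comparison. By edgeR 1 reached an unadjusted p of 0.05, Fau, in WT TAC against sham (background 6.28%) and in the interaction (background 4.48%). Other mRNAs known to carry a TOP motif, such as those of elongation factors, had a median of 0.13 after TAC in WT (13 of 15 above 0). In F3-KO TAC against WT TAC it was −0.20 (12 of 15 below 0). In these 2 comparisons 1 and 0 reached an unadjusted p of 0.05 by edgeR (background 6.28% and 10%), and edgeR, DESeq2 and limma called 0.

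Genes that build or control ribosomes lay nearer to 0 than the members between genotypes after TAC. In F3-KO TAC against WT TAC, 24 initiation factors had a median of −0.07, 35 biogenesis genes −0.01 and 13 regulators of ribosomal protein output −0.06, with 9, 17 and 5 above 0. edgeR called 0 of each list in all 7 comparisons. Between genotypes after TAC, 2, 2 and 1 reached an unadjusted p of 0.05 by edgeR (background 10%), and DESeq2 and limma called 0 (background 0.717% and 0.0993%). After TAC most of the 13 regulators lay lower, with medians of −0.15 in WT (9 below 0) and −0.17 in F3-KO hearts (10 below 0). Their log2 fold changes ran from −0.242 to 1.192 in WT and from −0.449 to 0.728 in F3-KO hearts, so the largest was upward in both. In WT, 2 reached an unadjusted p by edgeR (background 6.28%), both higher. DESeq2 called 1 in F3-KO hearts (background 3.15%). Over both genotypes the median was −0.16 with 10 below 0 and values from −0.309 to 0.96, and DESeq2 called 2 (background 4.66%). The medians do not give the direction of these calls. Of the 24 initiation factors 17 lay below 0 after TAC in F3-KO hearts, with a median of −0.051, and of the 35 biogenesis genes 19 did, with a median of −0.018. The 78 mitochondrial ribosomal protein genes, which serve the separate ribosome of mitochondria, differed from the cytosolic ones after TAC in F3-KO hearts, where 77 lay below 0 (background 47.1%) with a median of −0.31 and 41 were lower without overlap (background 11.4%). edgeR called 0 of them, with 25 at an unadjusted p (background 17.1%), DESeq2 called 3 (background 3.15%) and limma 0 (background 0.0568%). Between the sham groups they had a median of 0.12, with 69 above 0, and between genotypes after TAC of −0.21, with 71 below 0. In the same F3-KO hearts after TAC all 7 cardiomyocyte markers lay below 0, with a median of −0.48, and the 7 erythroid genes, whose sums fell in ranges of 1073 to 4511 CPM after sham and 366 to 980 CPM after TAC, had a median of −2.27, and their part in these values was not tested.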

How the data were processed

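RNA-sequencing of whole hearts (12 libraries) was deposited as a table of estimated counts per gene. The authors made these estimated counts, of which 40.6% over all genes and 81.8% over the members were not whole numbers, from cleaned reads that they aligned with HISAT2 2.0.4 and STAR 2.3.0, and they compared groups with DESeq2. The submitters' processing notes name builds mm8 and mm9 with no role. Which aligner's output was counted, the counter and the annotation are not given in the sources used here. The members, lists and naming rule were chosen with earlier results of these data known. Counts were rounded, genes filtered (filterByExpr, minimum count 10), TMM-scaled and tested with edgeR 4.0.16 (quasi-likelihood, R 4.3.3) in one model of 4 groups with 8 residual degrees of freedom, with Benjamini-Hochberg adjustment over 14094 genes and calls at an adjusted p under 0.05. DESeq2 1.42.0, limma 3.58.1 (trend), library totals, other filters, a replicate block, the left-out hearts and summed near-identical genes were alternatives. Testing on simulated data (TAC over both genotypes, 13895 genes) recovered 44 of 50 genes at log2 −1, 46 of 50 at 1 and all 50 at −2 and at 2. The simulation gave every gene the same dispersion and compared all TAC with all sham hearts. It therefore does not show how many smaller changes, or changes in comparisons of 2 groups, would be recovered. Named were paralog pairs, called members, up to 3 non-overlapping members of highest and of lowest fold change in each comparison of 2 groups, the 5 highest and 5 lowest by CPM, 10 members of known further roles, the core members farthest from the core median after TAC, and called list genes. Rpl23a, Rps15, Rps9, Rps27rt, Rpl37rt, Rpl37, Rpl14 and the other members listed as non-overlapping were named after their values were seen. The single-heart tables of 11 libraries were identical to the joint table and 1 breaks off; they were not used further. Labels call the hearts independent biological replicates. One gene of the fixed lists and one member by name are not reported here. Scripts ran in Python 3.11.15.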

Additional observations from a re-analysis of the deposited data

How the results depend on the processing

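No member was called by edgeR in any of the 7 comparisons, and this held with library totals, other filters and the summed near-identical genes. DESeq2 called 1 member after TAC in F3-KO hearts and 1 over both genotypes. At an unadjusted p of at most 0.05, edgeR and DESeq2 gave 3 and 4 members after TAC in F3-KO hearts, 3 and 2 between the sham groups, 3 and 8 between the TAC groups, 1 and 1 for the interaction, 3 and 3 for TAC over both genotypes and 3 and 5 for genotype over both surgeries. Leaving out 1 heart at a time gave 0 to 2 called members after TAC in F3-KO hearts and 0 to 1 over both genotypes, in both cases without F3-KO TAC heart 3. The median member ranged from −0.041 to 0.354 after TAC in WT, from −0.19 to −0.07 after TAC in F3-KO, from −0.17 to 0.21 between the sham groups and from −0.33 to −0.14 between the TAC groups when 1 heart was left out. The log2 ratio of the summed share ranged from −0.092 to 0.315 in WT and from −0.078 to 0.005 in F3-KO hearts. Without WT sham heart 2 and WT TAC heart 2 together, an alternative chosen after seeing the data, as was the summing of near-identical genes, edgeR called 0 members and the medians were 0.375 after TAC in WT, 0.21 between the sham groups and −0.29 between the TAC groups. Rpl3 turned sign in the interaction with library totals (0.11) and over left-out hearts (−0.25 to 0.13), and between the TAC groups over left-out hearts (−0.286 to 0.028). Rps27 between the sham groups turned to −0.22 when summed with Rps27rt, and ranged from −0.29 to 0.80 over left-out hearts. The cause of these changes was not tested.

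Same-numbered hearts did not regularly deviate together: over 18 pairs the correlation ran from −0.14 to 0.36, 4 were over 0.1, and 6 of 12 hearts correlated best with a heart of their own number. Pairs of different numbers ran from −0.36 to 0.20, so the highest value was that of a same-numbered pair, heart 3 of WT TAC and of F3-KO TAC. The labels call the hearts independent biological replicates, and the numbers were not taken as pairs. Whether any same-numbered hearts were handled together was not tested. With the replicate number as a block, edgeR called 1 member, Rps27rt, between genotypes over both surgeries (−0.80, adjusted p = 0.042) and 0 in the other 6 comparisons. With 3 hearts a group and 42.2 counts a heart for the lowest member, depth limits what can be said of Rps13, Rpl10 and Rpl31.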
